A study of Mus musculus with 2 samples.

Results

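Laminins, nidogens, perlecan and agrin are secreted proteins of the basement membrane, the thin matrix sheet that wraps each myofiber, nerve and vessel. The 10 genes described here, out of 31053 in the count tables, were taken by name: the laminin α chain genes Lama2, Lama4 and Lama5, the β chain genes Lamb1 and Lamb2, the γ chain gene Lamc1, the nidogen genes Nid1 and Nid2, Hspg2, which encodes perlecan, and Agrn, which encodes agrin. They were followed in fibro/adipogenic progenitors (FAPs), the Sca1+ mesenchymal cells of muscle interstitium, sorted from limb muscle of C57BL/6 mice at 3 weeks of age as cells negative for 7AAD, for the lineage stains CD45 and CD31, and for Vcam1. One library came from Bap1f/f mice (Bap1WT) and the other from Prx1-Cre;Bap1f/f mice (Bap1ΔMPC), in which Cre, active in limb mesenchymal progenitors, targets Bap1, a deubiquitinase gene. Both libraries carry the floxed Bap1 alleles. How many mice went into a library is not given in the sources used here.

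A laminin is a trimer of 1 α, 1 β and 1 γ chain that assembles inside the cell and polymerizes at cell surfaces. Nidogens tie the laminin network to type IV collagen, and perlecan and agrin are heparan sulfate proteoglycans that bind laminin, growth factors and receptors. The laminin α2 chain, perlecan and agrin also bind dystroglycan on the myofiber. Agrin made by motor neurons clusters acetylcholine receptors through Lrp4 and MuSK, and the synapse-active form depends on alternative exons that counts of transcript 3′ ends do not show.

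The library labelled Bap1WT held 4103 cells with a median of 12232 unique molecular identifiers (UMIs, each standing for 1 captured transcript), and the library labelled Bap1ΔMPC held 4378 cells with a median of 11017.5. Each genotype is thus 1 library, so differences between genotypes could not be set against replicates and were not tested. Intervals are exact at 95% and cover counting error only. Bap1 itself was at 17.6 UMIs per 1000000 (CPM) in the library labelled Bap1WT and 21.6 CPM in the library labelled Bap1ΔMPC, and 3′ counts do not show whether the floxed exons were present, so this level does not check the labels. The libraries shared 5 cell barcodes. The FAP markers Pdgfra, Ly6a, Pdgfrb, Col1a1 and Dcn were all detected, at a summed 37100 and 23839 CPM. Of other cell types, Pax7, Myf5, Myod1, Ptprc and Cd3e were at 0 in both libraries, endothelial markers (6 of 6 detected) summed to 92.0 and 116 CPM, mural markers (6 of 6) to 97.4 and 66.3, myofiber markers (6 of 6) to 64.2 and 37.4, Schwann and perineurial markers to 27.4 (6 of 6) and 73.0 (5 of 6, Sox10 at 0), immune markers (4 of 6) to 7.92 and 14.0, muscle stem cell markers (3 of 6) to 48.4 and 37.3, tendon markers (6 of 6) to 215 and 440, and adipocyte markers to 4.72 (5 of 6) and 31.6 (6 of 6). Several of these cell types are known to make laminins, nidogens, perlecan or agrin, and their part in the values below was not tested.

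Levels are given over all cells and in 2 gated subpopulations named after the study's Dpp4+ and Cxcl14+ FAPs. Dpp4-type cells had at least 25 UMIs per 10000 of Pi16, Sema3c, Anxa3 and Efemp1 together, and Cxcl14-type cells had fewer than 25 of these and at least 5 per 10000 of Cxcl14. Dpp4-type cells numbered 1050 (25.6%) in the library labelled Bap1WT and 1251 (28.6%) in the library labelled Bap1ΔMPC, Cxcl14-type cells 569 (13.9%) and 1020 (23.3%). The remaining 2484 (60.5%) and 2107 cells (48.1%) fell in neither gate. Each gate was checked against a marker list that overlaps its own gate genes: the Dpp4-type list summed to 7231 and 6034 CPM in Dpp4-type cells against 447 and 345 CPM in Cxcl14-type cells, and the Cxcl14-type list to 6450 and 5744 CPM in Cxcl14-type cells against 438 and 457 CPM in Dpp4-type cells. The latter sums hide opposite moves in Cxcl14-type cells. The gate gene Cxcl14 was at 1446 and 2807 CPM and Col15a1 at 1916 and 1961. Smoc2 was at 2737 and 842 CPM, Hsd11b1 at 177 and 62.5 and Crispld2 at 174 and 72.5. Over all cells Cxcl14 was at 232 and 690 CPM.

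In GENCODE vM21 (GRCm38), Lama2 lies on chromosome 10 (26980036 to 27619758, minus strand), Lama4 on chromosome 10 (38965515 to 39110188, plus), Lama5 on chromosome 2 (180176373 to 180225859, minus), Lamb1 on chromosome 12 (31265234 to 31329644, plus) and Lamb2 on chromosome 9 (108479736 to 108490530, plus). Lamc1 lies on chromosome 1 (153218922 to 153332786, minus), Nid1 on chromosome 13 (13437551 to 13512269, plus), Nid2 on chromosome 14 (19751265 to 19811787, plus), Hspg2 on chromosome 4 (137468769 to 137570630, plus) and Agrn on chromosome 4 (156165290 to 156197488, minus). The 3′ end of Nid2 overlaps the end of Rtraf on the opposite strand, from position 19811351. Of the 10 genes, 7 had an entry in the RefSeq promoter table (GRCm38.p6), and Lama4, Lamc1 and Nid2 had none. The bases before the start are printed for Agrn, which had the largest ratio between the libraries, and for Lamb1 and Lamb2, 2 genes of 1 chain class that differed in opposite directions. Each is 5′ to 3′ on the gene's strand and stops before the first transcribed base of either annotation, at chr4:156197489-156197738 (minus) for the upstream start of Agrn, chr12:31265043-31265233 (plus) for Lamb1 and chr9:108479612-108479735 (plus) for Lamb2. Capitals mark GC boxes (GGGCGG, or CCGCCC on the other strand), CCAAT boxes (CCAAT or ATTGG) and TATA boxes (TATAAA or TTTATA).
Agrn: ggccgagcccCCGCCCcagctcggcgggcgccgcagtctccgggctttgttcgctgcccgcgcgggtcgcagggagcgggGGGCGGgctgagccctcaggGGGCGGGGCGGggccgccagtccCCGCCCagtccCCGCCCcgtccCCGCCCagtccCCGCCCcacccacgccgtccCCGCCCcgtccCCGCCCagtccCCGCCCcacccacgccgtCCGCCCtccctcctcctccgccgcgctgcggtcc
Lamb1: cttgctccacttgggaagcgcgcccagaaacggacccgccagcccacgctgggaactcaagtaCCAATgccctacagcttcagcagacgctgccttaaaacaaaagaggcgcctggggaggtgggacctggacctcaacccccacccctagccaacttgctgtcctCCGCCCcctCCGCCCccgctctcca
Lamb2: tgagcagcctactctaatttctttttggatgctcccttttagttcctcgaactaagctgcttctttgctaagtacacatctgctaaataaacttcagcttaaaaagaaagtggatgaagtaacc

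Over the full 250 bases before the RefSeq start, the Agrn window held 12 GC boxes, overlaps counted, and 35 CpG dinucleotides, the Lamb1 window held 2 GC boxes, 1 CCAAT box and 14 CpG, and the Lamb2 window held none of the 3 motifs and 3 CpG. Of 32851 windows of the same length in the table, 32.7% held a GC box, 33.8% a CCAAT box and 12.4% a TATA box, and the median window held 6 CpG. The windows of Hspg2 and Lama5 held 5 and 4 GC boxes, that of Nid1 held 1 GC box and 1 CCAAT box, and that of Lama2 held no motif and no CpG. The Lama2 window (chr10:27616943-27617192) lies inside the gene as GENCODE places it, so it is not upstream of the GENCODE start. The window of a second Agrn start, also inside its gene, had 2 GC boxes. These are matches of letters, and nothing about binding was measured.

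**Figure D1:**
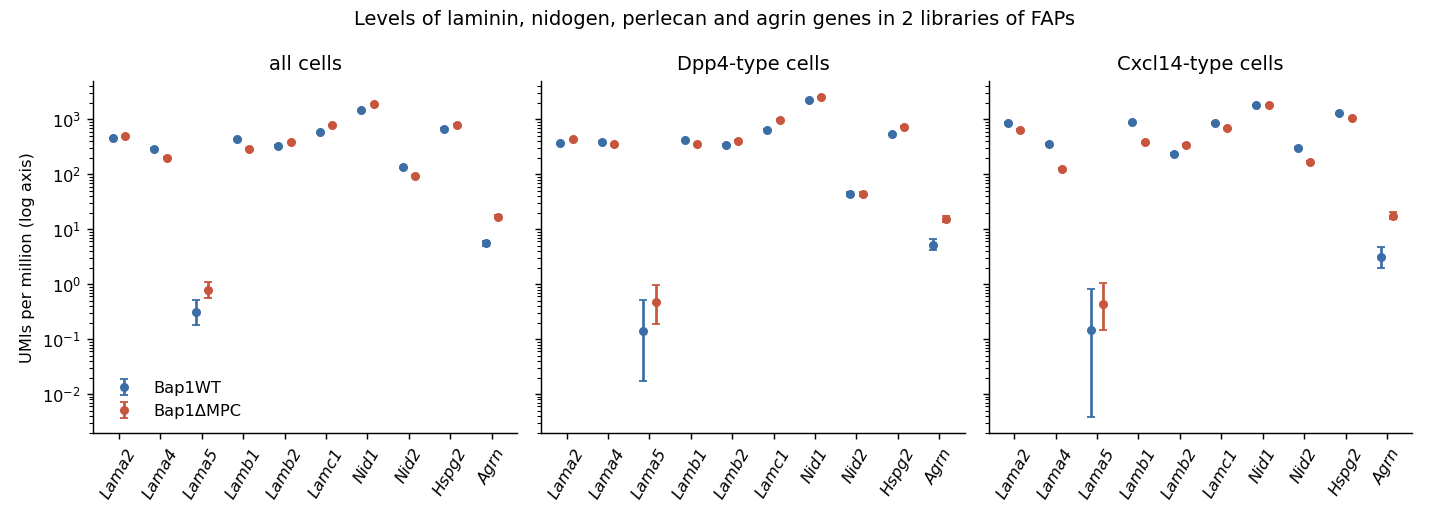
Level of each gene in CPM (log axis) in all cells, Dpp4-type cells and Cxcl14-type cells of the library labelled Bap1WT (blue) and of the library labelled Bap1ΔMPC (red). Points are single libraries and bars are exact 95% counting intervals. Nid1 is the highest and Lama5 the lowest in each panel, and Agrn is at 5.55 and 16.9 CPM over all cells.

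Over all cells, both libraries gave Nid1 at the top and then Hspg2 and Lamc1, and Lama5 at the bottom after Agrn. For the library labelled Bap1WT the order of CPM was Nid1 (1489), Hspg2 (677), Lamc1 (580), Lama2 (462), Lamb1 (440), Lamb2 (334), Lama4 (294), Nid2 (136), Agrn (5.55) and Lama5 (0.314). For the library labelled Bap1ΔMPC it was Nid1 (1918), Hspg2 (800), Lamc1 (777), Lama2 (500), Lamb2 (389), Lamb1 (293), Lama4 (200), Nid2 (94.1), Agrn (16.9) and Lama5 (0.787). Each UMI comes from 1 transcript end, so these levels are per transcript and need no division by length, although genes can be captured with unequal efficiency. No pair of neighbours in either order had overlapping counting intervals, and the spread between mice is unknown. Nid1 ranked 111th and 78th among the 31053 genes, whereas Agrn ranked 9501st and 6557th.

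Between the libraries, 9 of the 10 genes could be compared over all cells, since Lama5 missed the expression minimum of 0.01 on the log-normalized scale. Past 1.5-fold, 1 of 9 (Agrn) was higher in the library labelled Bap1ΔMPC, where 8.43% of all 11761 genes were, and 1 of 9 (Lamb1) was lower, where 7.51% were. Agrn was also the 1 gene of 9 past the 3-fold size used in the study's methods, against 2.56% of all genes. The median log2 ratio of the 9 genes was 0.22, beside 0.10 over all genes tested, and the median absolute log2 ratio was 0.42, beside 0.22. With CPM scaling the counts of genes past 1.5-fold were thus near the background in either direction, but the lower count was 3 of 9 under TMM and median-of-ratios scaling and 0 without mitochondrial and ribosomal protein genes in the total.

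The same counts differed by subpopulation. In Dpp4-type cells, 2 of 9 (Lamc1 and Agrn) were higher past 1.5-fold, beside 8.5% of all genes, none was lower, beside 8.82%, and none passed 3-fold, beside 2.69%. In Cxcl14-type cells, 1 of 9 (Agrn) was higher, beside 12.2%, 3 of 9 (Lama4, Lamb1 and Nid2) were lower, beside 9.79%, and 1 (Agrn) passed 3-fold, beside 4.15%. The median log2 ratio of the 9 genes was 0.25 in Dpp4-type cells (0.07 over all genes) and -0.33 in Cxcl14-type cells (0.07 over all genes). On either side of the 1.5-fold limit, Lamc1 in Dpp4-type cells (1.52-fold, interval 1.48 to 1.56) and Lamb1 over all cells (interval 1.47 to 1.53) lay just inside, and Lamb2 in Cxcl14-type cells (1.48-fold) and Lama4 over all cells (1.47-fold) just outside.

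**Figure D2:**
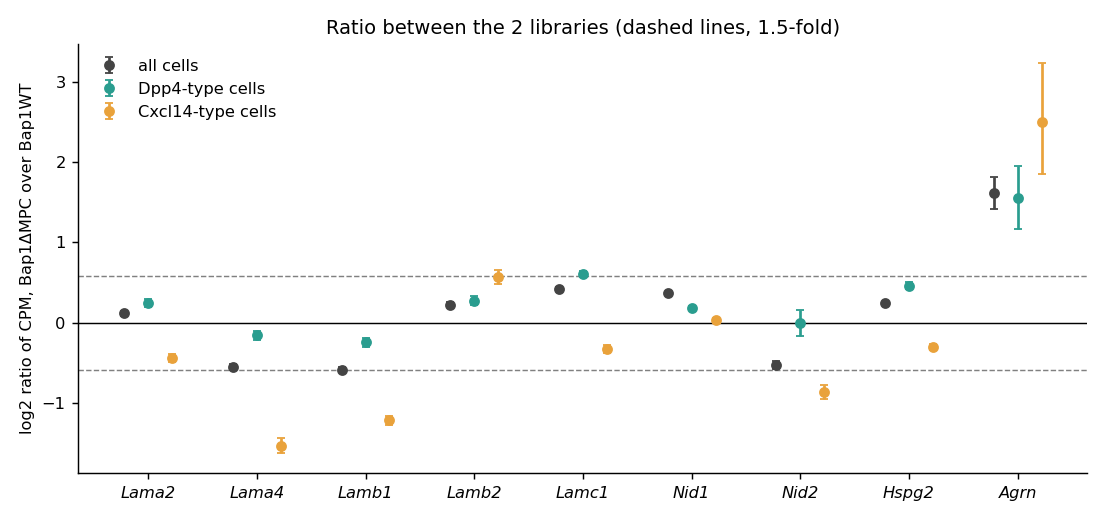
Log2 ratio of CPM, library labelled Bap1ΔMPC over library labelled Bap1WT, for 9 genes in all cells (black), Dpp4-type cells (green) and Cxcl14-type cells (orange), with exact 95% counting intervals and dashed lines at 1.5-fold. Agrn lies above 1.5-fold in all 3 sets, and Lama4, Lamb1 and Nid2 lie below it in Cxcl14-type cells.

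The Cxcl14-type gate did not hold the same mixture in both libraries. Cells were also assigned to states by gates on other genes, and 445 of 569 Cxcl14-type cells (78.2%) in the library labelled Bap1WT fell in no other state and had no UMI of Wnt4, Pcsk2 and Rtl4, against 351 of 1020 (34.4%) in the library labelled Bap1ΔMPC. In the latter, 244 cells (23.9%) fell in the Cxcl14-type state with a UMI of Wnt4, Pcsk2 or Rtl4 and 345 (33.8%) in a state gated on Spon1, Cldn2, Hsd11b2 and Angpt4, whereas these were 42 (7.38%) and 27 (4.75%) in the library labelled Bap1WT. Marker sums of other cell types also differed within the gate, at 103 and 37.9 CPM for myofiber, 108 and 78.2 for mural, 19.7 and 96.5 for Schwann and perineurial and 198 and 321 for tendon markers, and their part in the ratios was not tested. Apart from Lama5, ratios in Cxcl14-type cells are therefore given below also within single states.

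Of the laminin α chains, Lama2 varied in direction and Lama4 was lower. Lama2, the α chain of the myofiber basement membrane whose loss causes a congenital muscular dystrophy, was at 462 CPM (interval 456 to 468) over all cells of the library labelled Bap1WT and 500 (494 to 506) in the library labelled Bap1ΔMPC, a log2 ratio of 0.11, close to the median of 0.10 over all genes and 0.02 under TMM scaling. In Dpp4-type cells it was at 368 and 437 CPM (log2 ratio 0.25, interval 0.19 to 0.30), and in Cxcl14-type cells at 874 and 643 CPM (-0.44, -0.49 to -0.39). The direction of Lama2 thus depended on the subpopulation. In the Cxcl14-type state without Wnt4, Pcsk2 and Rtl4 it was at 932 and 583 CPM, and in cells of the other Cxcl14-type state of the library labelled Bap1ΔMPC it was at 877 CPM.

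Lama4, the α chain known from vessel, nerve and fat basement membranes, was lower in the library labelled Bap1ΔMPC in each set. Its level was 294 CPM (289 to 299) and 200 CPM (196 to 204) over all cells, a log2 ratio of -0.55 (-0.59 to -0.52). In Dpp4-type cells the values lay close, at 392 and 351 CPM (-0.16, -0.21 to -0.10). The gap was largest in Cxcl14-type cells, at 361 and 125 CPM, 2.89-fold lower (log2 ratio -1.53, -1.63 to -1.44), and within the Cxcl14-type state without Wnt4, Pcsk2 and Rtl4 it was of like size, at 377 and 138 CPM (-1.45). A UMI of Lama4 was seen in 87.5% of Cxcl14-type cells of the library labelled Bap1WT and 53.1% of those of the library labelled Bap1ΔMPC. After cells were thinned to 5000 UMIs, which evens out depth and left out the 120 of 4103 and 210 of 4378 shallower cells (10 and 43 of them Cxcl14-type), the shares were 73.0% (69.1 to 76.6) and 35.3% (32.3 to 38.4).

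Lama5, the α chain of many epithelial and vessel basement membranes, was close to undetected. It had 16 UMIs (0.314 CPM, 0.179 to 0.509) and 39 UMIs (0.787 CPM, 0.560 to 1.08) over all cells, a ratio of 2.51-fold with a wide counting interval of 1.37 to 4.81. Dpp4-type cells held 2 and 7 of these UMIs, and Cxcl14-type cells 1 and 5. Tendon-like cells of the library labelled Bap1ΔMPC, with 179 of the 4378 cells, held 12 of the 39 UMIs (5.69 CPM, 2.94 to 9.94). At these counts no difference between the subpopulations was detectable.

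The β chains differed in opposite directions. Lamb1, the β chain of most early and interstitial laminins, was at 440 CPM (434 to 446) over all cells of the library labelled Bap1WT and 293 (288 to 298) in the library labelled Bap1ΔMPC (log2 ratio -0.59, -0.62 to -0.56). In Dpp4-type cells it was at 414 and 350 CPM (log2 ratio -0.25, -0.30 to -0.19), and in Cxcl14-type cells at 886 and 382 CPM, 2.32-fold lower (-1.21, -1.27 to -1.16). The high Lamb1 level that set Cxcl14-type cells apart in the library labelled Bap1WT was thus not seen over the whole gate in the other library. Of the states of the library labelled Bap1ΔMPC, the Cxcl14-type state with Wnt4, Pcsk2 or Rtl4 was at 551 CPM (523 to 579). The Dpp4-type states there were lower, at 411 CPM with Krt7 or Plet1 and 332 CPM without. Within the Cxcl14-type state without Wnt4, Pcsk2 and Rtl4 the values were 937 and 335 CPM (-1.49).

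Lamb2, the β chain concentrated at the neuromuscular synapse, was higher in the library labelled Bap1ΔMPC in each set. It was at 334 CPM (329 to 339) and 389 (384 to 395) over all cells, a log2 ratio of 0.22, and at 340 and 411 CPM in Dpp4-type cells (0.27, 0.22 to 0.33). In Cxcl14-type cells it was at 232 and 345 CPM (0.57, 0.48 to 0.65), and in the state without Wnt4, Pcsk2 and Rtl4 at 228 and 368 CPM (0.69). None of these passed 1.5-fold except the last.

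Lamc1, the γ chain shared by nearly all laminins of muscle and the chain that nidogens bind, was at 580 CPM (573 to 587) and 777 (769 to 785) over all cells, a log2 ratio of 0.42. It was higher in Dpp4-type cells of the library labelled Bap1ΔMPC, at 650 and 990 CPM (1.52-fold, interval 1.48 to 1.56), and lower in Cxcl14-type cells, at 862 and 686 CPM (log2 ratio -0.33, -0.38 to -0.28). As with Lama2, the sign of the Lamc1 ratio depended on the subpopulation. Its level in the Dpp4-type state with Krt7 or Plet1, which had 279 cells in the library labelled Bap1ΔMPC and 34 in the other, was 1165 CPM.

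**Figure D3:**
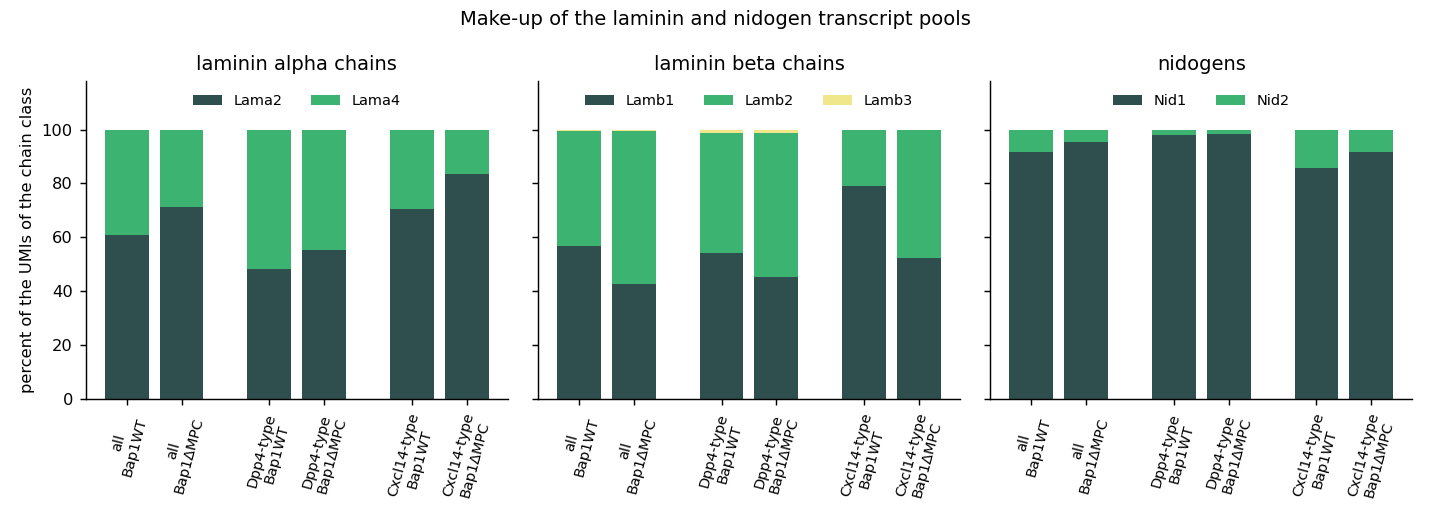
Share of the UMIs of all laminin α chain genes, all β chain genes and both nidogen genes held by each gene, in percent, for 3 cell sets and both libraries. Genes under 1% in every bar are not drawn. Lama2 and Nid1 hold a larger share and Lamb1 a smaller share in the library labelled Bap1ΔMPC in each set. For Nid1 in Dpp4-type cells (98.1% and 98.3%) the counting intervals overlap.

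As shares of RNA within a chain class, which are not shares of trimers, the α pool was nearly all Lama2 and Lama4. Lama2 held 61.0% of α chain UMIs in the library labelled Bap1WT and 71.3% in the library labelled Bap1ΔMPC over all cells, 48.4% and 55.4% in Dpp4-type cells, and 70.7% and 83.6% in Cxcl14-type cells. Lamb1 held 56.6% and 42.7% of β chain UMIs over all cells, so that Lamb2 was the more abundant β chain RNA in the library labelled Bap1ΔMPC but not in the other. The Lamb1 share was 54.3% and 45.4% in Dpp4-type cells and 79.2% and 52.5% in Cxcl14-type cells. Lamb3 held 0.454% and 0.574% over all cells, and Lamc1 held 97.1% and 96.1% of γ chain UMIs.

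The sums of the classes shifted as well. Over all cells α chains summed to 757 and 702 CPM, β chains to 777 and 686 CPM and γ chains to 597 and 809 CPM, so γ UMIs per α UMI were 0.789 in the library labelled Bap1WT and 1.15 in the library labelled Bap1ΔMPC. That ratio was 0.899 and 1.33 in Dpp4-type cells and 0.711 and 0.918 in Cxcl14-type cells. β UMIs per α UMI stayed between 0.905 and 1.03 in these 3 sets of both libraries. In Cxcl14-type cells the α sum was 1237 and 769 CPM and the β sum 1120 and 728 CPM.

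Detection of the 3 chains of a possible trimer in the same cell was counted after thinning to 5000 UMIs. Over all cells, Lama2, Lamb2 and Lamc1 were seen together in 48.6% (47.0 to 50.1) of cells of the library labelled Bap1WT and 60.7% (59.2 to 62.2) of the library labelled Bap1ΔMPC. Lama4, Lamb1 and Lamc1 were seen together in 45.7% (44.2 to 47.3) and 32.8% (31.4 to 34.2). Lama4, Lamb2 and Lamc1 were seen together in 41.7% (40.2 to 43.3) and 36.4% (34.9 to 37.9). Over all cells the combination of Lama2 with Lamb2 was thus more frequent, and both combinations with Lama4 less frequent, in the library labelled Bap1ΔMPC. In Dpp4-type cells Lama4, Lamb2 and Lamc1 were not less frequent, at 56.6% (53.5 to 59.7) and 57.6% (54.7 to 60.4). There Lama4, Lamb1 and Lamc1 were at 60.2% (57.2 to 63.3) and 55.2% (52.4 to 58.1), and Lama2, Lamb2 and Lamc1 at 55.2% and 64.9%. In Cxcl14-type cells, Lama2, Lamb1 and Lamc1 were seen together in 77.5% and 55.5% of cells and Lama2 and Lama4 together in 67.8% and 30.6%, while Lama4, Lamb2 and Lamc1 were at 43.5% and 24.3% and Lama2, Lamb2 and Lamc1 at 52.4% (48.2 to 56.6) and 60.3% (57.1 to 63.4).

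Nid1, the more abundant of the nidogens, was at 1489 CPM (1478 to 1499) and 1918 (1906 to 1930) over all cells, a log2 ratio of 0.37. It was at 2225 and 2524 CPM in Dpp4-type cells (0.18, 0.16 to 0.20) and 1799 and 1839 CPM in Cxcl14-type cells, where the log2 ratio of 0.03 had an interval of -0.00 to 0.06 and turned negative under 2 other scalings. Within the Cxcl14-type state without Wnt4, Pcsk2 and Rtl4 the log2 ratio was -0.14 (-0.19 to -0.09). Cells outside both gates differed most, at 1076 and 1575 CPM (0.55, 0.53 to 0.57). Nearly every cell had a UMI of Nid1, 99.3% and 99.1%.

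Nid2, its paralog, was lower in the library labelled Bap1ΔMPC over all cells, at 136 CPM (132 to 139) and 94.1 (91.5 to 96.9), a log2 ratio of -0.53. Dpp4-type cells had little of it and no measurable difference, at 43.3 CPM in both (ratio 0.00, -0.16 to 0.16). In Cxcl14-type cells it was at 302 and 166 CPM, 1.82-fold lower (-0.86, -0.95 to -0.77). Within the Cxcl14-type state without Wnt4, Pcsk2 and Rtl4 the log2 ratio was -1.18 (-1.33 to -1.04). Thinned to 5000 UMIs, 69.9% (66.0 to 73.7) and 51.2% (48.0 to 54.4) of Cxcl14-type cells had a UMI, and 19.1% and 16.6% of Dpp4-type cells. Nid1 held 91.7% of nidogen UMIs in the library labelled Bap1WT and 95.3% in the library labelled Bap1ΔMPC.

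Hspg2, which encodes the heparan sulfate proteoglycan perlecan, was at 677 CPM (670 to 684) and 800 (792 to 808) over all cells, a log2 ratio of 0.24. In Dpp4-type cells it was at 536 and 737 CPM (0.46, 0.42 to 0.50). Cxcl14-type cells had more of it in both libraries, at 1291 and 1046 CPM, with a ratio in the opposite direction (-0.30, -0.34 to -0.26). Within the Cxcl14-type state without Wnt4, Pcsk2 and Rtl4 it was at 1351 and 905 CPM, and cells with these genes in the library labelled Bap1ΔMPC were at 1568 CPM.

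Agrn was low in both libraries and had the largest ratio of the 9 genes. It had 283 UMIs (5.55 CPM, 4.92 to 6.23) over all cells of the library labelled Bap1WT and 839 UMIs (16.9 CPM, 15.8 to 18.1) in the library labelled Bap1ΔMPC, 3.05-fold higher (2.66 to 3.51). The ratio was 2.93-fold (2.25 to 3.87) in Dpp4-type cells, from 74 and 227 UMIs, and 5.67-fold (3.61 to 9.36) in Cxcl14-type cells, from 21 and 200 UMIs. Agrn was thus higher in each set, and the lower limits of all 3 intervals were above 1.5-fold. Within the Cxcl14-type state without Wnt4, Pcsk2 and Rtl4, 20 and 65 UMIs gave a log2 ratio of 2.22 (1.48 to 3.02).

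Because Agrn was sparse, free RNA had to be considered for it. No cell type known to lack these genes was in the libraries, so muscle fiber transcripts, which FAPs are not known to make, were used as a gauge. At 5000 UMIs, Agrn was seen in 2.74% (2.25 to 3.29) of cells in the library labelled Bap1WT and 8.01% (7.21 to 8.88) in the library labelled Bap1ΔMPC. Over all cells Acta1, the skeletal muscle actin gene, went the other way, at 6.35% (5.61 to 7.15) and 3.74% (3.19 to 4.36), as did the muscle creatine kinase gene Ckm, at 2.79% and 1.70%. In Dpp4-type cells the 2 muscle genes lay close between the libraries, Acta1 at 4.72% and 4.66% and Ckm at 2.26% and 2.00%. Pecam1, which encodes CD31, the endothelial protein that the sort selected against, moved in the same direction as Agrn, at 1.08% (0.782 to 1.45) and 2.04% (1.63 to 2.52) over all cells and 1.07% and 4.09% of Cxcl14-type cells. The other endothelial markers did not move together. Over all cells Tek was at 78.5 and 107 CPM and Emcn at 0.0784 and 0.0807. Kdr was at 9.51 and 3.84 CPM, Cdh5 at 1.53 and 0.424 and Cldn5 at 0.157 and 0.0606. Over all cells of the library labelled Bap1WT the Agrn share was below that of Acta1 and close to that of Ckm. In Dpp4-type cells of that library Agrn was at 2.46% (1.60 to 3.61) and Ckm at 2.26% (1.44 to 3.38). The muscle genes gauge free RNA of their own only. How much of the Agrn signal in either library was free RNA was not tested. Unthinned, 6.46% and 16.1% of cells had an Agrn UMI.

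**Figure D4:**
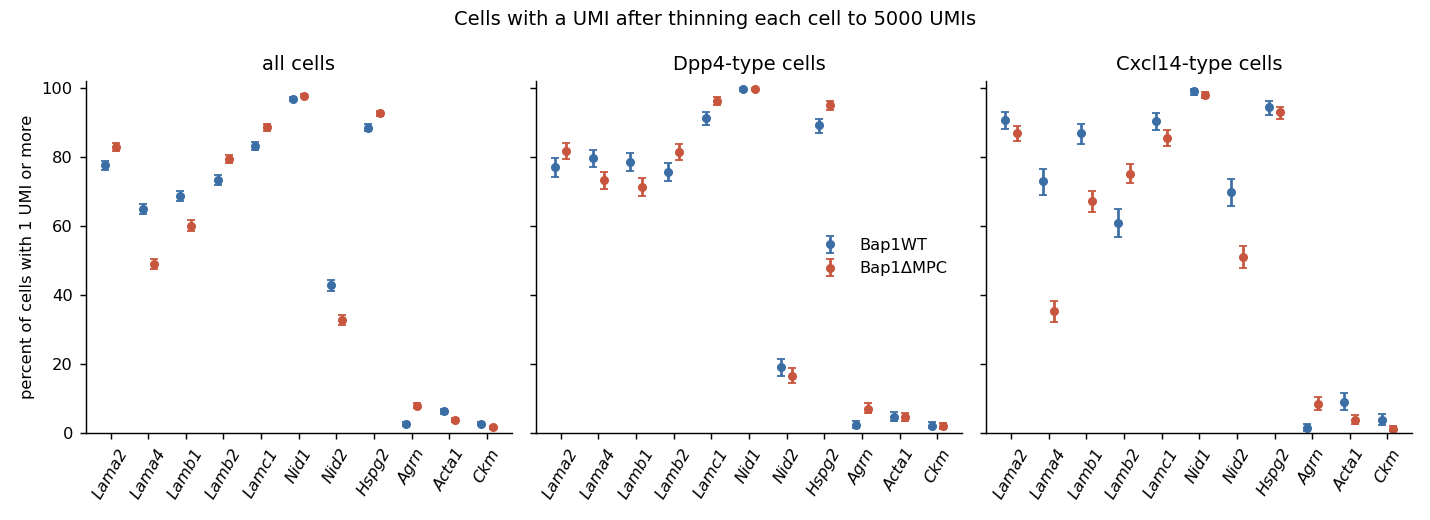
Percent of cells with at least 1 UMI of each gene after cells were thinned to 5000 UMIs, shallower cells left out, for 9 genes and the myofiber genes Acta1 and Ckm, in 3 cell sets of the library labelled Bap1WT (blue) and the library labelled Bap1ΔMPC (red). Bars are exact 95% binomial intervals. Agrn is higher in the library labelled Bap1ΔMPC in each panel, while Acta1 and Ckm are not.

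The subpopulations also differed from each other within a library. Within the library labelled Bap1WT, 4 of 9 genes (Lama2, Lamb1, Nid2 and Hspg2) were lower past 1.5-fold in Dpp4-type than in Cxcl14-type cells, beside 15.4% of all genes, and 1 (Agrn) was higher, beside 11.9%. The folds were 2.37 for Lama2, 2.14 for Lamb1, 6.99 for Nid2 and 2.41 for Hspg2, while the Agrn ratio of 1.67 had a counting interval of 1.02 to 2.86. Within the library labelled Bap1ΔMPC, 1 of 9 (Nid2, 3.84-fold) was lower, beside 16.6% of all genes, and 1 (Lama4, 2.81-fold) was higher, beside 11.3%. Lama4 was at like levels in the 2 subpopulations of the library labelled Bap1WT, at 392 and 361 CPM, and Lamb1 in those of the library labelled Bap1ΔMPC, at 350 and 382 CPM.

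The log2 ratio between the libraries was larger in Dpp4-type than in Cxcl14-type cells for Lama4 by 1.37 (1.26 to 1.48), Lamb1 by 0.97, Lamc1 by 0.94, Nid2 by 0.86, Hspg2 by 0.76, Lama2 by 0.69 and Nid1 by 0.15. It was smaller for Agrn, by -0.95 (-1.70 to -0.20), and for Lamb2, by -0.30 (-0.40 to -0.20). These intervals cover counting error, and the differences were not tested across mice.

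**Figure D5:**
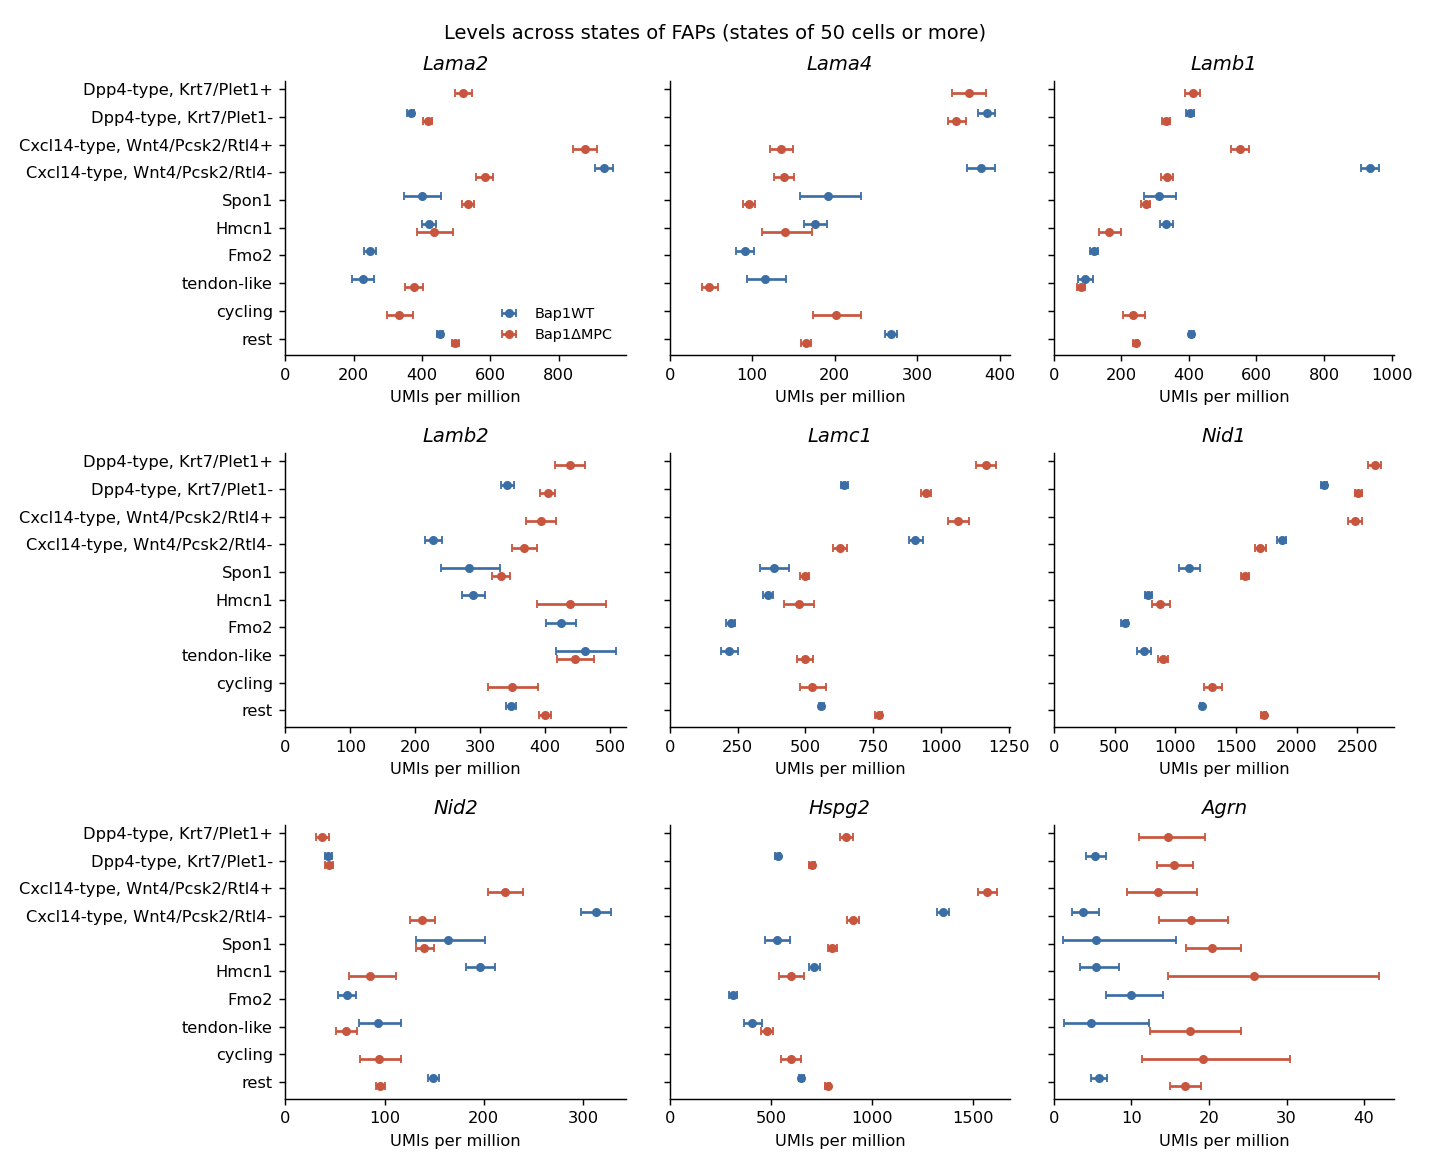
Level of 9 genes in CPM in each state of at least 50 cells, in the library labelled Bap1WT (blue) and the library labelled Bap1ΔMPC (red), with exact 95% counting intervals. Points missing for one color are states under 50 cells in that library. Lama4 and Lamb1 are lower and Agrn is higher in the library labelled Bap1ΔMPC in each of the 6 states that both libraries hold.

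Across states set by gates on other genes, 6 had at least 50 cells in both libraries. Lama4 and Lamb1 were lower in the library labelled Bap1ΔMPC in 6 of 6, with log2 ratios from -1.45 to -0.14 and from -1.49 to -0.20, and Agrn was higher in 6 of 6, from 1.53 to 2.25. The Lamb1 interval included 0 in the Spon1 and tendon-like states. Nid2 was lower in 5 of 6 (-1.20 to 0.03). Lama2, Lamb2, Lamc1 and Nid1 were each higher in 5 of 6 and Hspg2 in 4 of 6, and for Lama2, Lamc1, Nid1 and Hspg2 the Cxcl14-type state without Wnt4, Pcsk2 and Rtl4 was among those lower. For Lamb2 the 1 lower state was tendon-like cells, where the counting interval included 0. The Spon1 state had 55 cells in the library labelled Bap1WT, the tendon-like state 59, and the Hmcn1 state 64 in the library labelled Bap1ΔMPC, so their ratios are the least precise. Agrn in the library labelled Bap1WT rested on 3 UMIs in the Spon1 state and 4 in the tendon-like state.

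Most genes peaked in a Cxcl14-type or a Dpp4-type state. Of the 7 states of the library labelled Bap1WT, Lama2, Lamb1, Lamc1, Nid2 and Hspg2 were highest in the Cxcl14-type state without Wnt4, Pcsk2 and Rtl4, Nid1 in the Dpp4-type state (2225 CPM), and Lamb2 in tendon-like cells (461 CPM, 416 to 510), where its interval overlapped that of the Fmo2 state (424 CPM). Lama4 was at 384 CPM in the Dpp4-type state and 377 CPM in the Cxcl14-type state, with overlapping intervals. Tendon-like and Fmo2 cells had the least Lamc1, at 219 and 224 CPM.

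Among the 9 states of the library labelled Bap1ΔMPC, Lama2 (877 CPM), Lamb1 (551 CPM), Nid2 (222 CPM) and Hspg2 (1568 CPM) were highest in the Cxcl14-type state with Wnt4, Pcsk2 or Rtl4, and Lamc1 (1165 CPM) and Nid1 (2642 CPM) in the Dpp4-type state with Krt7 or Plet1. Both of these states were under 50 cells in the other library. Agrn ran from 13.4 to 25.8 CPM over these states, with wide intervals that all overlapped.

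Over 16 sums of states in both libraries, the gene most like Lama2 among 10940 genes was Hspg2 (Pearson r of log2 CPM 0.96), and Lama2 was in turn the most like Hspg2. Nid1 was the most like Lamc1 (0.92), followed by Card14 (0.92) and Gadd45a (0.91). Beyond the 10 genes, Ccdc134 (0.94) and Rgmb (0.90) came next for Lama2, Ccdc134 (0.90) and Ret (0.88) for Hspg2, Marcks (0.91), D630033O11Rik (0.91) and Fyn (0.88) for Lama4, Col5a3 (0.91), Ifnar1 (0.90) and Tctn3 (0.89) for Lamb1, and Ust (0.85), Antxr1 (0.78) and Gabarap (0.77) for Lamb2. For Nid1 they were Plekha2 (0.96), Cndp2 (0.96) and Nectin1 (0.94), for Nid2 Col6a3 (0.93), Sema6d (0.92) and Zfp592 (0.90), and for Agrn Gpx4 (0.93), Pcbd2 (0.93) and 1110008P14Rik (0.93). For Lama5, at few UMIs in every sum, they were Trmt11 (0.86), Nt5c3b (0.84) and Tcea2 (0.83). Lamb1 and Lamb2 had an r of -0.68 over all 16 sums, -0.90 over the 7 of the library labelled Bap1WT and -0.34 over the 9 of the library labelled Bap1ΔMPC. The sums share libraries and differ in depth, so these values only describe them.

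Lists of related genes were taken by name, and values are given for up to 4 genes of each list with the largest ratio over all cells. Their counts past 1.5-fold stand beside shares over all genes of 8.43% higher and 7.51% lower over all cells, 8.5% and 8.82% in Dpp4-type cells and 12.2% and 9.79% in Cxcl14-type cells, and lists of so few genes are only described. Among the netrins, which bind laminin networks, Ntn4, a netrin that can disrupt laminin polymers, was at 54.1 and 95.2 CPM over all cells and higher past 1.5-fold. Ntn1 was at 89.1 and 127 CPM. In Dpp4-type cells Ntn4 was at 109 and 218 CPM and Ntn1 at 95.9 and 147 CPM, both higher past 1.5-fold. In Cxcl14-type cells Ntn4 was at 47.4 and 31.8 CPM and Ntn1 at 57.7 and 66.6 CPM, neither past 1.5-fold.

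Among collagens of the basement membrane, 7 of 9 could be compared. Past 1.5-fold, Col18a1 was higher and Col4a4 and Col4a5 were lower in each of the 3 sets. Beside these stand shares over all genes of 8.43% and 7.51% over all cells, 8.5% and 8.82% in Dpp4-type cells and 12.2% and 9.79% in Cxcl14-type cells. Over all cells Col4a4 was at 39.9 and 15.1 CPM, Col4a5 at 57.1 and 26.4 and Col4a3 at 12.4 and 8.54, these being the genes of the α3, α4 and α5 chains of type IV collagen that form a trimer of their own. Col18a1, a heparan sulfate proteoglycan collagen and source of endostatin, was at 76.4 and 136 CPM.

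Of 22 other basement membrane and linker genes, 18 could be compared over all cells, with 3 higher (Smoc1, Matn2 and Thbs4) and 6 lower (Sparc, Fbln1, Hmcn1, Smoc2, Frem1 and Egflam), beside 8.43% and 7.51% of all genes. The calcium-binding glycoprotein gene Smoc2, itself a marker of Cxcl14-type FAPs, was at 1041 and 423 CPM, and its paralog Smoc1 at 0.451 and 7.43 CPM. Hmcn1, a hemicentin gene that also gated a state here, was at 12.7 CPM in the library labelled Bap1ΔMPC, a log2 ratio of -1.86. In Dpp4-type cells 4 of 17 were higher and 3 lower, beside 8.5% and 8.82% of all genes. In Cxcl14-type cells 5 of 18 were higher and 6 lower, beside 12.2% and 9.79%.

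Of 21 genes of receptors for laminin, perlecan and agrin, 18 could be compared over all cells, with 2 higher (Itga2 and Itga7) and 2 lower (Itga1 and Itga6), near the 8.43% and 7.51% of all genes. The integrin α1 gene Itga1 was at 39.4 and 13.1 CPM, 3.01-fold lower, and was lower in Dpp4-type (7.93 and 3.93 CPM) and Cxcl14-type cells (75.9 and 18.7 CPM). Itga2 was at 21.8 and 38.9 CPM, Itga6 at 8.70 and 4.50 and Itga7, the laminin receptor of myofibers, at 5.27 and 7.97. The count was 5 higher and 2 lower of 18 in Dpp4-type cells, beside 8.5% and 8.82% of all genes. It was 2 higher and 3 lower of 17 in Cxcl14-type cells, beside 12.2% and 9.79%.

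Enzymes that act on the sugar chains of these proteins and of dystroglycan mostly stayed within 1.5-fold, and proteases less so. Of 13 genes for the matriglycan on dystroglycan that laminin, perlecan and agrin bind, 12 could be compared over all cells, with none higher, and B4gat1 was lower past 1.5-fold (54.7 and 36.4 CPM). Of 20 genes for heparan sulfate, 19 could be compared, with none higher and 1 lower, Hs3st1 (14.3 and 8.94 CPM), while Sulf1, a sulfatase gene, was at 190 and 261 CPM. The set of 8 proteases known to cut these proteins had 7 compared, with none higher and 3 lower, Prss12, Mmp3 and Tll1, beside 7.51% of all genes. None was higher and 4 of 7 (the same genes and Ctsl) were lower in Dpp4-type cells, beside 8.82%, and 3 of 7 (Prss12, Mmp3 and Ctsl) in Cxcl14-type cells, beside 9.79%. Prss12, which encodes neurotrypsin, the protease that cleaves agrin, was at 45.9 and 13.2 CPM over all cells, 35.6 and 15.5 in Dpp4-type cells and 76.8 and 13.4 in Cxcl14-type cells, so it was lower where Agrn was higher in all 3 sets. Mmp3 was at 103 and 39.5 CPM and the cathepsin gene Ctsl at 1404 and 974 CPM over all cells.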

How the data were processed

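FAPs of 1 library per genotype were profiled by droplet scRNA-Seq of transcript 3′ ends. Per the labels and methods, the authors aligned reads to mm10 with Cell Ranger 3.1.0 and, in Seurat 3.2.1, gated doublets, controlled cell quality and took out cells with markers of other muscle-resident types. The deposited values are whole-number UMI counts that were not normalized. The labels and the paper name different sequencers and digestion times. Each cell in the files had 1501 to 4998 genes and less than 5% mitochondrial UMIs, and all were kept. The libraries held 51015705 and 49540066 UMIs.

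The genes and lists were chosen with earlier results of these data known. For each set of cells, a gene's summed UMIs were divided by the total of that set (CPM). Ratios are those of CPM, library labelled Bap1ΔMPC over library labelled Bap1WT, with 3 counts standing in for a count of 0. The background took genes whose mean log-normalized expression exceeded 0.01 and whose 2 sums together held at least 20 UMIs. Intervals are exact Poisson (levels), Clopper-Pearson (shares) and conditional binomial (ratios) at 95%. A difference between 2 log2 ratios has a normal interval from the counts. UMIs remove PCR copies, and intervals cover counting error only.

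States were assigned from sums of 1 to 6 marker genes per 10000 UMIs (10 or more for cycling, 5 or more for the others, any UMI of Krt7 or Plet1, or of Wnt4, Pcsk2 or Rtl4), and states under 50 cells were left out. All 10 genes are named in each set, and from each other list at most 4 genes with 100 or more UMIs and the largest absolute ratio, with list genes past 1.5-fold named without values. Some genes of these lists are not reported here. For likeness, the 3 genes with the highest r were taken among those with 100 or more UMIs in each library.

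Alternatives changed the gates, scaling (TMM factors by edgeR 4.0.16, with no test run, or the median of ratios), weighting of cells, depth, fold and minimum, and left out the 5% of cells with the most UMIs as possible doublets. Positions came from GENCODE vM21 and promoters from RefSeq (GRCm38.p6). Python 3.11.15, numpy 2.4.6, scipy 1.17.1 and R 4.3.3 were used.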

Additional observations from a re-analysis of the deposited data

Results flagged for a closer look

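Lama2, Lamc1 and Hspg2 had ratios of opposite sign in the 2 gated subpopulations, higher in Dpp4-type cells and lower in Cxcl14-type cells of the library labelled Bap1ΔMPC, with counting intervals that left out 0 on each side. In the cells of neither gate, 60.5% and 48.1% of the libraries, all were higher, with log2 ratios of 0.19 for Lama2, 0.50 for Lamc1 and 0.25 for Hspg2. The log2 ratio in Dpp4-type cells exceeded that in Cxcl14-type cells by 0.69 for Lama2, by 0.94 for Lamc1 and by 0.76 for Hspg2. With 1 library per genotype the difference was not tested in any of these genes. In the Cxcl14-type state without Wnt4, Pcsk2 and Rtl4, the ratios were -0.68 for Lama2, -0.53 for Lamc1 and -0.58 for Hspg2. That state sets aside unequal numbers of cells with a UMI of these genes, 42 in the library labelled Bap1WT and 244 in the other. Those 244 cells were at 877 CPM for Lama2, 1063 for Lamc1 and 1568 for Hspg2. The state without these genes in the library labelled Bap1WT was at 932, 905 and 1351 CPM. The part of the cells set aside in these ratios was not tested.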

How the results depend on the processing

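No paired analysis was possible because only 1 library stands for each genotype and nothing here was tested. The signs of the ratios between libraries held under every alternative run for Lama2, Lama4, Lamb1, Lamb2, Lamc1, Hspg2 and Agrn in all cells, Dpp4-type cells and Cxcl14-type cells. Nid1 turned negative in Cxcl14-type cells under TMM and median-of-ratios scaling, and Nid2 in Dpp4-type cells lay near 0 on either side. Lama5, with few UMIs, reversed to -0.24 in Dpp4-type cells thinned to 5000 UMIs and to -0.73 in Cxcl14-type cells at a Cxcl14 threshold of 10. TMM scaling moved the median log2 ratio of all genes from 0.10 to 0.00 over all cells.

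Counts of genes past 1.5-fold moved with values near that limit. Over all cells the lower count of 1 became 3 under TMM and median-of-ratios scaling and 0 without mitochondrial and ribosomal protein genes in the total, without the 5% of cells with the most UMIs, or at 2-fold. In Dpp4-type cells the higher count of 2 became 1 at a threshold of 15, under TMM and median-of-ratios scaling, without the 5% of cells with the most UMIs and at 2-fold. In Cxcl14-type cells the higher count of 1 became 2 at a Dpp4-type threshold of 40, a Cxcl14 threshold of 10, without mitochondrial and ribosomal protein genes and after thinning. Between subpopulations, the higher count of 1 in the library labelled Bap1WT became 2 at a Dpp4-type threshold of 15, under TMM, median-of-ratios and reduced-total scaling and after thinning, and 0 at a Cxcl14 threshold of 2 and at 2-fold. In the library labelled Bap1ΔMPC the higher count of 1 became 2 under TMM and median-of-ratios scaling, and the lower count of 1 became 3 at a Cxcl14 threshold of 10 and 2 after thinning.

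Of the shares within a class, 38 stayed inside their counting interval and 10 moved slightly beyond it. After thinning, the Lama4 share over all cells of the library labelled Bap1WT was 38.3%, the Nid1 share 91.0% there and 95.2% in the library labelled Bap1ΔMPC, 97.8% and 98.5% in Dpp4-type cells, and in Cxcl14-type cells of the library labelled Bap1ΔMPC Lama2 held 84.6% and Lama4 15.1%. Without the 5% of cells with the most UMIs, in the library labelled Bap1WT, Lamb1 held 57.3% over all cells and 55.4% in Dpp4-type cells, and Nid1 91.4%. Depth limits Lama5 and the Agrn values of small states, which rest on few UMIs.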
